A study of Saccharomyces cerevisiae with 8 samples.

Results

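The H3 shutoff strain was compared with the wildtype strain 3 hours after the move from galactose to dextrose. These were 4 of the 8 paired-end MNase-seq libraries of the series, chosen by their labelled strain and time. The H3 shutoff libraries are replicates 3 and 4 of strain DCB200.1, in which HHT1 is deleted and HHT2, the remaining gene for histone H3, is driven by the GAL1 promoter. The wildtype libraries are replicates B and C of strain YEF473A, which carries both H3 genes. All 4 cultures grew in galactose, were washed and placed in dextrose, which turns the GAL1 promoter off, and were fixed with formaldehyde before digestion with MNase. According to the study the H3 shutoff cells stop in G2/M with large buds in dextrose while the wildtype cells go on dividing, so H3 supply, cell cycle stage and strain cannot be told apart in this comparison. The study also reports that H3-depleted chromatin was more sensitive to MNase, with more background smearing, and that the MNase concentration was adjusted. The degree of digestion thus cannot be told apart from the strain either. Each strain is represented by 2 libraries, and the labels number both wildtype libraries as replicate 1, with the letters B and C, without saying how they were separated. The study counts them as 2 wildtype replicates of paired-end sequencing, but does not say whether they came from separate cultures. They may thus be parts of one culture, and p-values measure only the spread between these libraries, which may be technical.

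A nucleosome is a stretch of DNA wrapped around an octamer that holds a pair of H3/H4 dimers and a pair of H2A/H2B dimers. MNase cuts the linker DNA between nucleosomes, so the midpoints of the protected fragments mark nucleosome centers. In yeast genes a nucleosome-free region lies upstream of the start, the +1 nucleosome sits at its downstream edge, and further nucleosomes follow at regular distances into the gene. New H3 is needed to pack the DNA made in S phase and to replace histones lost during transcription.

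Every library held 5000001 fragments, so the values below are relative shares of a fixed number and cannot show a loss or gain of nucleosomes over the whole genome. Stretches of 100 positions with 0 read centers in both libraries of a strain and at least 15 in both of the other were listed. They were picked by the labels, so they cannot check which strain is which. On chromosome 2, the 100 positions from 257000 held 0 read centers in both H3 shutoff libraries, against 35 and 34 in wildtype. On chromosome 14, those from 576100 held 0 in both H3 shutoff libraries and 28 and 37 in wildtype. Chromosome 4 showed the reverse: the 100 positions from 461800 held 80 and 103 read centers in H3 shutoff and 0 in both wildtype libraries, as did the 4 stretches of 100 positions from 462000 to 462399. The genes there were not looked up in this build. The strains differ by an engineered deletion and an inserted promoter, and whether the DNA itself is absent at these stretches was not tested. They are therefore not read as nucleosomes lost or gained. A further 151 of 60346 tiles of 200 bp, on 14 chromosomes, held at least 10 read centers in H3 shutoff replicate 4 and wildtype replicate C and at most 2 in the other libraries, so that a difference between libraries runs across the strains. None of them was called below.

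Fragments were longer in H3 shutoff cells. Their mean length was 158.0 and 162.9 bp in the H3 shutoff replicates 3 and 4, against 154.6 and 156.0 bp in the wildtype replicates B and C. The study states that mean fragment length did not change after H3 depletion, without naming the samples compared, which may differ from these. Fragments of 170 to 200 bp made up 28.6 and 33.9% in H3 shutoff and 18.0 and 17.4% in wildtype, whereas fragments of 140 to 160 bp, close to a nucleosome core, made up 34.0 and 31.8% in H3 shutoff and 41.4 and 47.4% in wildtype. Short fragments of 100 to 130 bp did not follow the strain, with 9.49 and 4.22% in H3 shutoff and 10.1 and 5.60% in wildtype. With 2 libraries a strain, the exact two-sided permutation test of a value per library cannot go below p = 0.333, which is its result wherever the strains did not overlap. No such value can therefore pass 0.05, and the spread between replicates is given instead. Since fragment length moved with the strain, results on position were also computed from fragments of 140 to 160 bp alone.

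Fewer nucleosomes were called in H3 shutoff cells, and they lay less sharply. The study's caller found 57450 and 55959 nucleosomes in H3 shutoff and 62848 and 62228 in wildtype. The study itself reports no change in this number after H3 depletion, also without naming the samples compared. Fuzziness, the standard deviation of the read centers around a called center, had a median of 37.4 and 37.2 bp in H3 shutoff and 28.0 and 28.1 bp in wildtype, a difference of 9.29 bp that is far above the gap between replicates. Sharp nucleosomes were the rarest. Calls with a fuzziness under 20 bp numbered 1082 and 909 in H3 shutoff, or 1.88 and 1.62% of calls, against 11591 and 12156 in wildtype, or 18.4 and 19.5%. Calls with a fuzziness over 40 bp made up 34.3 and 35.0% in H3 shutoff and 10.2 and 12% in wildtype. Read centers within 50 bp of a called center were 64.2 and 65.6% of all read centers in H3 shutoff, and 80.2 and 79.7% in wildtype.

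Neighboring calls stood farther apart in H3 shutoff, at a median of 191 and 197 bp, against 171 and 172 bp in wildtype. Distances of 150 to 180 bp made up 39.9 and 35.4% in H3 shutoff and 63.1 and 62.6% in wildtype, and those over 220 bp made up 33.9 and 37.3% in H3 shutoff and 20.1 and 21.2% in wildtype. The caller closes a stretch around each call as long as the local fragments, and this length differed between strains with a median of 159 and 164 bp in H3 shutoff and 155 and 156 bp in wildtype. With calls made again at one length of 140 bp, the median distance was 175 and 176 bp in H3 shutoff and 166 and 167 bp in wildtype, so the difference shrank to 9.0 bp from 22.5 bp. Among calls with more than 20 read centers it was 40.5 bp.

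**Figure D1:**
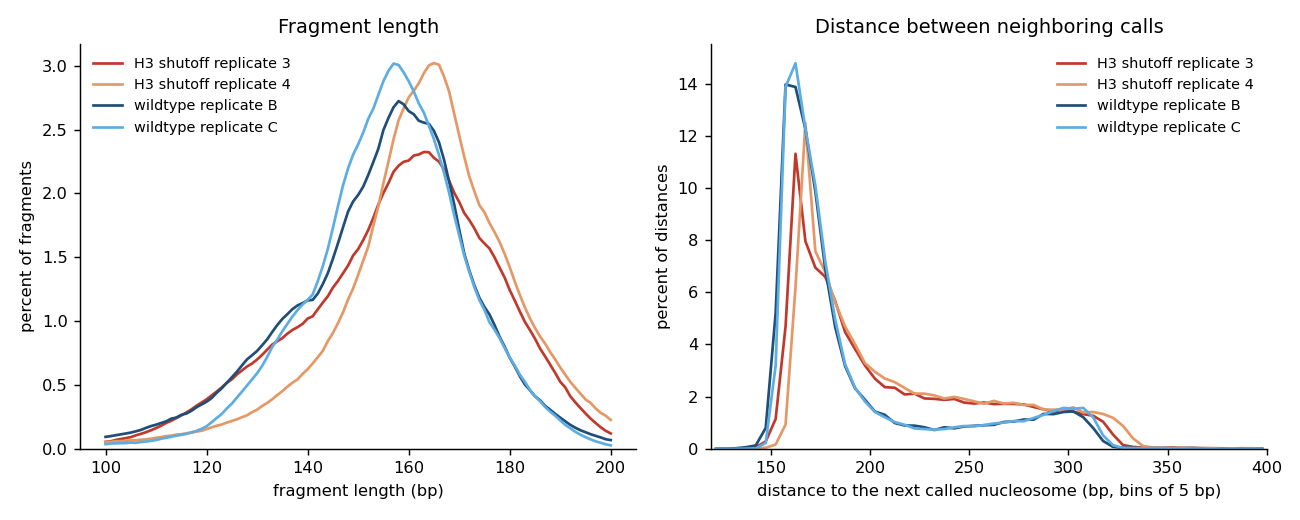
Left: percent of fragments (y axis) by fragment length in bp (x axis) in each library. Right: percent of distances between neighboring called nucleosomes (y axis, bins of 5 bp) by distance in bp (x axis). Lines are single libraries, with H3 shutoff replicates 3 and 4 in red and orange and wildtype replicates B and C in blue. The H3 shutoff libraries hold more fragments of 170 to 200 bp (28.6 and 33.9%, against 18.0 and 17.4% in wildtype) and fewer distances of 150 to 180 bp (39.9 and 35.4%, against 63.1 and 62.6%).

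Positions were shared less between the strains than between replicates. Counting calls within 30 bp as the same position, 48.6 to 51.9% of H3 shutoff calls had a partner in a wildtype library, and 74.3 and 76.3% had one in the other H3 shutoff library. Of the wildtype calls, 43.7 to 47.5% had a partner in an H3 shutoff library, and 85.1 and 85.9% had one in the other wildtype library. Averaged over the libraries of the other strain, the share matched across strains minus that between replicates was −23.9 and −26.4 percentage points in H3 shutoff and −38.5 and −41.5 in wildtype. Positions of one strain only, shared by its replicates and with no call of the other strain within 60 bp, numbered 7637 of 42693 in H3 shutoff (17.9%) and 12131 of 53472 in wildtype (22.7%). They held a median of 51 read centers within 50 bp in H3 shutoff replicate 3 and 50 in wildtype replicate B, close to the 56 and 59 of all positions shared by the replicates of each strain.

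The regular order of nucleosomes along the chromosomes was lower in H3 shutoff. The autocorrelation of read center density, which measures how well the density predicts itself at a given distance, had a first peak that stood above the trough before it by 0.164 and 0.108 in H3 shutoff and 0.670 and 0.718 in wildtype. The second peak had a height of 0.0284 and 0.0167 in H3 shutoff and 0.431 and 0.476 in wildtype. The fourth was 0.00872 and 0.00765 in H3 shutoff, against 0.153 and 0.177 in wildtype, so the fourth wildtype peak was about as high as the first H3 shutoff peak. The first peak lay at 177 and 178 bp in H3 shutoff and 168 and 169 bp in wildtype. From fragments of 140 to 160 bp it lay at 167 and 165 bp in H3 shutoff and 165 and 166 bp in wildtype, so the difference in lag, unlike that in height, fell within the spread of the replicates.

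Peaks along genes were lower in H3 shutoff. Over 1018 genes of at least 1000 bp aligned on the +1 nucleosome of the pooled libraries, the +1 peak rose 1.53 and 1.82 genome means above the trough after it in H3 shutoff, against 4.56 and 4.39 in wildtype. The +2 peak had a height of 0.396 and 0.465 in H3 shutoff and 2.95 and 3.02 in wildtype. The +3 peak had 0.156 and 0.201 in H3 shutoff and 2.23 and 2.33 in wildtype, and the +4 peak 0.0776 and 0.0782 in H3 shutoff and 1.63 and 1.71 in wildtype. The heights were read at the pooled peak places, 169, 333 and 497 bp from +1 for +2, +3 and +4. The H3 shutoff profiles were highest later, near 180, 356 and 524 or 528 bp. Density there was 1.41 and 1.49, 1.28 and 1.36, and 1.18 and 1.19 genome means. The heights given for +2 to +4 in H3 shutoff thus lie below those of its own peaks. Aligned on the listed start in place of the pooled peak, +1 heights were 0.339 and 0.343 in H3 shutoff and 1.70 and 1.69 in wildtype, and +4 heights were 0.0736 and 0.0982 in H3 shutoff and 0.883 and 0.921 in wildtype. The −1 nucleosome, on the far side of the nucleosome-free region, had a density of 1.04 and 1.03 genome means in H3 shutoff and 1.63 and 1.55 in wildtype.

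The nucleosome-free region itself was wider but less empty. Its lowest density was 0.467 and 0.380 genome means in H3 shutoff and 0.224 and 0.157 in wildtype. Aligned on the listed start, these were 0.504 and 0.413 in H3 shutoff and 0.435 and 0.327 in wildtype, which overlap. The −1 and +1 peaks stood 296 and 293 bp apart in H3 shutoff and 270 and 271 bp apart in wildtype. This distance stayed apart between strains in fragments of 140 to 160 bp, at 291 and 292 bp in H3 shutoff and 272 bp in both wildtype libraries. The +1 to +2 distance was 177 and 176 bp in H3 shutoff and 168 bp in both wildtype libraries, and in fragments of 140 to 160 bp it was 170 bp in both H3 shutoff libraries and 167 bp in both wildtype libraries. Aligned on the listed start it was 172 and 167 bp in H3 shutoff and 168 and 165 bp in wildtype, which overlap. At the other end of the gene the last nucleosome had a height of 1.06 and 1.16 in H3 shutoff and 2.45 and 2.08 in wildtype. The lowest density after it was 0.362 and 0.308 in H3 shutoff and 0.322 and 0.288 in wildtype, where the strains overlap. From fragments of 140 to 160 bp it was 0.356 and 0.3035 in H3 shutoff and 0.3031 and 0.272 in wildtype, which barely do not overlap.

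Read centers were then followed at single nucleosomes. Of 56108 windows within 73 bp of a pooled center, the spread of read centers was larger in H3 shutoff at 26594 (47.4%) and smaller at 3716 (6.62%; limma, adjusted p under 0.05). The median difference was 7.19 bp, with quartiles of 0.23 and 13.8 bp. Windows where it was larger had a median spread of 37.5 bp in H3 shutoff and 21.8 bp in wildtype, and those where it was smaller had 30.3 bp in H3 shutoff and 42.5 bp in wildtype. The mean position differed at 21288 windows (37.9%), by a median of 20.0 bp with quartiles of 15.9 and 25.5 bp. Both a larger spread and a changed position were found at 10849 windows, and neither kind of change at 16631. In fragments of 140 to 160 bp the calls were 14364 larger and 1648 smaller spreads and 8907 changed positions.

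The spread changed most at the +2 and +3 nucleosomes and less with each further step into the gene. Counted from the start of 964 genes of at least 1000 bp, the median spread at the +1 nucleosome was 31.3 and 29.9 bp in H3 shutoff and 19.7 and 18.9 bp in wildtype. At the +2 nucleosome it was 36.4 and 35.5 bp in H3 shutoff and 20.1 and 19.4 bp in wildtype, which was the widest difference of the 8 places, at 16.2 bp. At the +7 nucleosome it was 36.6 and 34.8 bp in H3 shutoff and 31.3 and 31.0 bp in wildtype, a difference of 4.55 bp. In wildtype the spread thus grew with each step into the gene from the +1 to the +7 nucleosome, while in H3 shutoff it was near its level at +7 already from +2 on. The spread was taken within 73 bp of pooled centers, which limits how large it can get. It was not computed at centers called in each strain. The share of nucleosomes whose spread was larger by the test went with this: 68.0% at +1, 81.2% at +2, 75.9% at +3, 68.1% at +4, 54.2% at +5 and 35.8% at +7. The −1 nucleosome had 31.1 and 30.0 bp in H3 shutoff and 21.6 and 21.0 bp in wildtype, and 56.9% were larger.

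The mean position of the read centers at the first nucleosomes of genes lay farther into the gene in H3 shutoff. At the +1 nucleosome it was 8.69 and 9.41 bp downstream of the pooled center in H3 shutoff, against −2.12 and −1.48 bp in wildtype. Of 947 +1 nucleosomes tested, 459 were shifted into the gene and 48 out of it. The difference was 10.8 bp at +1, 5.36 bp at +2, 4.67 bp at +3, 1.76 bp at +4 and 0.32 bp at +5. It was −0.69 bp at +6 and −1.17 bp at +7, where 109 shifted in and 149 out. At the −1 nucleosome it ran the other way, away from the nucleosome-free region, with −4.68 and −5.07 bp in H3 shutoff and −0.03 and −0.84 bp in wildtype, where 256 of 792 shifted out and 103 in. Fragments of 140 to 160 bp gave a difference of 10.1 bp at +1 and −4.25 bp at −1. The study's own calls nearest to each center, taken within 60 bp, gave 6.60 and 6.75 bp in H3 shutoff and −2.63 and −2.27 bp in wildtype at +1. Such a call was present for 84.6 and 81.8% of +1 nucleosomes in H3 shutoff and for 98.9 and 97.7% in wildtype. Both of these comparisons were chosen after seeing the data. The highest point of the mean profile aligned on the pooled center lay at 3 bp in both H3 shutoff libraries and −1 bp in both wildtype libraries. Aligned on the listed start, it lay 58 and 63 bp into the gene in H3 shutoff and 38 and 39 bp in wildtype, so the size of the difference depends on the alignment. A mean taken over a fixed window beside a nearly empty region also moves when the read centers spread, and the parts of the 2 changes were not separated.

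**Figure D2:**
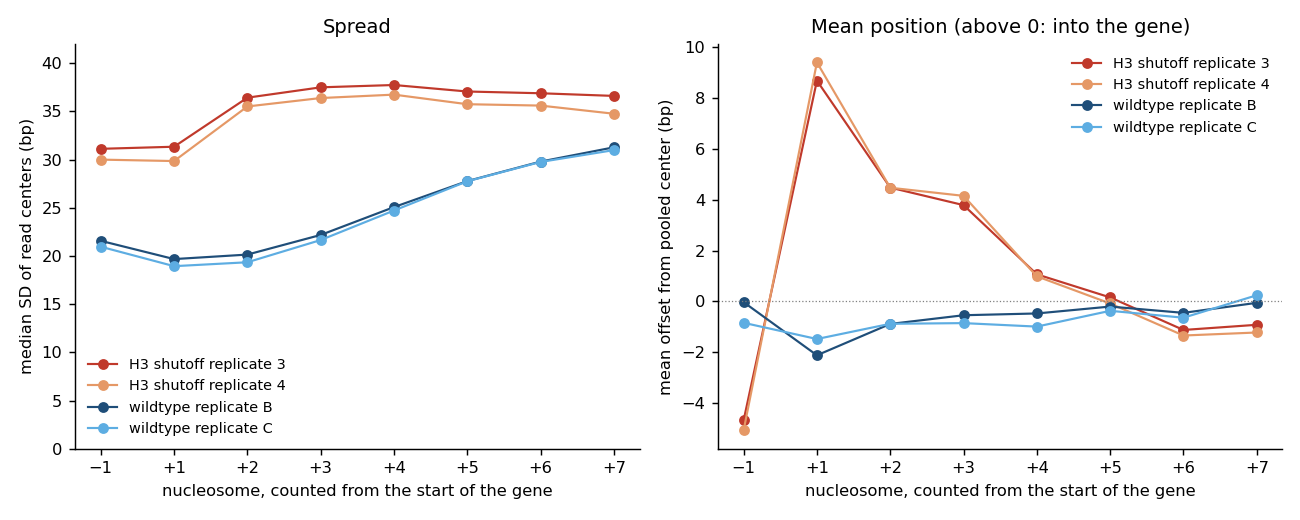
Left: median SD of the read centers in bp (y axis) for the −1 nucleosome and the +1 to +7 nucleosomes of long genes (x axis). Right: mean offset of the read centers from the pooled center in bp (y axis), above 0 into the gene. Points are single libraries. The H3 shutoff libraries are near 31 and 30 bp at +1 and stay between 34.8 and 37.7 bp from +2 on, the wildtype libraries climb to 31.3 and 31.0 bp at +7, and the offsets of the strains part most at +1.

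Where read centers were gained and lost was tested in tiles of 200 bp laid without regard to nucleosomes. Of 59552 tiles, 6286 held more read centers in H3 shutoff (10.6%) and 6661 held fewer (11.2%; edgeR's quasi-likelihood test, adjusted p under 0.05). The change depended on the place, taken from the middle base of each tile, so a tile also covers DNA beside the named stretch. Of 881 tiles centered in the 150 bp before a listed start and outside transcripts, 3.52% were higher and 21.1% lower. The median log2 fold change of these tiles was −0.36, and their mean was 58.6 and 52.8 read centers in H3 shutoff, against 74.4 and 66.2 in wildtype. Counted exactly, the 150 bp before the start of 1362 promoters had a median of 0.09, with 57 higher and 102 lower. In the first 500 bp of transcripts, 8.11% of 3724 tiles were higher and 15.4% lower. Over 500 bp into transcripts the balance was the other way, with 13.1% of 8477 tiles higher and 7.88% lower and a median log2 fold change of 0.01. The mean there was 85.7 and 84.6 read centers in H3 shutoff and 79.5 and 81.5 in wildtype. In the 200 bp after a listed end, 3.82% of 288 tiles were higher and 15.3% lower. Tiles in the outer 20 kb of the chromosomes were close to the rest, with 10.5% higher and 10.3% lower.

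With the DESeq2 Wald test the tile counts were 2767 higher and 1181 lower. The edgeR test on 3 libraries called 0 tiles whichever library was left out, although 10155 to 16067 had an unadjusted p under 0.05, and no other tool was run on 3 libraries. The tile calls thus rest on all 4 libraries.

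Windows of 100 bp around the pooled centers gave 6021 higher (10.4%) and 17383 lower (30.1%) of 57812. This balance depends on the centers and on the scaling. Around centers called in wildtype it was 2895 higher and 20394 lower, and around centers called in H3 shutoff 11970 higher and 7738 lower. With TMM in place of equal library sizes, which moved the median log2 fold change of all windows to −0.01 from −0.40, it was 10728 higher and 7522 lower. The edgeR test without any one of the 4 libraries called 0 windows, with 16976 to 21812 at an unadjusted p under 0.05. In the genes, the +1 window had a median of 68 and 63 read centers in H3 shutoff and 92 and 95 in wildtype, and 27 were higher and 523 lower of 957. At +7 the medians were 66 and 60 in H3 shutoff and 60 and 63 in wildtype, with 117 higher and 131 lower of 747.

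The windows with the largest fold changes were nearly empty in one of the strains. At position 1026567 of chromosome 7 the window held 97 and 148 read centers in H3 shutoff and 5 and 1 in wildtype. At 447093 of chromosome 2 it held 123 and 179 in H3 shutoff and 2 and 6 in wildtype, and at 339839 of chromosome 14 163 and 278 in H3 shutoff and 9 in both wildtype libraries. The fourth, at 174260 of chromosome 6, held 137 and 206 in H3 shutoff and 4 and 11 in wildtype, and all 4 had an adjusted p of 1.42e-05 (edgeR). In the other direction, the window at 164104 of chromosome 2 held 0 and 1 in H3 shutoff and 31 and 14 in wildtype. At 270126 of chromosome 4 it held 1 and 0 in H3 shutoff and 9 and 34 in wildtype, at 765891 of chromosome 7 0 and 2 in H3 shutoff and 21 and 26 in wildtype, and at 261160 of chromosome 16 2 and 1 in H3 shutoff and 32 and 30 in wildtype. The strains did not overlap at any of these 8 windows, as the rule required. Genes at these places were not looked up.

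Gene bodies were compared for groups of genes that respond to glucose and growth, or that assemble chromatin or drive the cell cycle. Of 1608 gene bodies, 244 held more read centers in H3 shutoff (15.2%) and 259 held fewer (16.1%; edgeR, adjusted p under 0.05), with a median log2 fold change of −0.04. Genes for ribosomal proteins, which are among the most transcribed in growing yeast, were higher: 24 of 33 passed the test upward and 0 downward, with a median log2 fold change of 0.63. In 30 of the 33 both H3 shutoff libraries lay above both wildtype libraries, against 31.2% of all gene bodies, while 39.9% of all were lower without overlap. RPS31, which encodes a ribosomal protein fused to ubiquitin, held 258 and 284 read centers in H3 shutoff and 123 and 142 in wildtype (log2 fold change 1.03, SE 0.19, adjusted p = 0.00456). RPL15A held 352 and 324 in H3 shutoff and 165 and 171 in wildtype. RPP0, the base of the ribosomal stalk, held 452 and 449 in H3 shutoff and 223 and 264 in wildtype. RPL38, at 81 and 56 in H3 shutoff and 71 and 78 in wildtype, was the only member below 0. Many of these genes have a near-identical second copy, and reads that match both copies cannot be assigned, so single values are uncertain where the copies are alike.

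Genes of glycolysis and fermentation followed: 4 of 7 were higher and 0 lower, against 15.2 and 16.1% of all gene bodies, with a median of 0.42. CDC19, pyruvate kinase, held 709 and 757 read centers in H3 shutoff and 297 and 434 in wildtype (log2 fold change 1.00, SE 0.16, adjusted p = 0.00258 by edgeR). PFK2, a subunit of phosphofructokinase, held 1493 and 1782 in H3 shutoff and 771 and 940 in wildtype. FBA1, aldolase, held 486 and 552 in H3 shutoff and 320 and 380 in wildtype, and PDC1, pyruvate decarboxylase, 897 and 1186 in H3 shutoff and 731 and 827 in wildtype. In each of these 4 genes both H3 shutoff libraries lay above both wildtype libraries, as they did in 31.2% of all gene bodies.

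Genes for the use of other carbon sources, which glucose represses, went the other way, with a median of −0.23. Of 18, 0 were higher and 6 lower, against 15.2 and 16.1% of all gene bodies. ALD3, an aldehyde dehydrogenase, held 898 and 716 read centers in H3 shutoff and 1121 and 1188 in wildtype (log2 fold change −0.52, SE 0.12, adjusted p = 0.00915). HXT2, a high-affinity glucose transporter, held 665 and 729 in H3 shutoff and 995 and 918 in wildtype. PCK1, the key enzyme of gluconeogenesis, held 891 and 1017 in H3 shutoff and 1237 and 1292 in wildtype. FOX2 of peroxisomal fat oxidation held 1448 and 1548 in H3 shutoff and 2101 and 1865 in wildtype. The lactate permease gene JEN1 and the proline oxidase gene PUT1 were also lower, by −0.35 and −0.34. GAL2, the galactose permease, held 920 and 847 in H3 shutoff and 1022 and 1048 in wildtype and did not pass (adjusted p = 0.0916).

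The other lists were mixed and are read against all gene bodies, of which 15.2% were higher and 16.1% lower. The chaperone and chromatin lists do not stand apart from these shares, so the genes named from them are single results. Of 12 chaperone and stress genes, 1 was higher and 2 lower: SSA2, a cytosolic Hsp70, held 817 and 861 in H3 shutoff and 601 and 720 in wildtype, while GAD1, glutamate decarboxylase, held 803 and 758 in H3 shutoff and 1041 and 1071 in wildtype, and GSY2, glycogen synthase, 1011 and 891 in H3 shutoff and 1247 and 1323 in wildtype. Of 12 genes for chromatin assembly and remodelling, 2 were higher and 0 lower. CAC2, a subunit of the histone chaperone CAF-1, held 1000 and 1359 in H3 shutoff and 594 and 804 in wildtype, and POB3, a subunit of FACT, held 967 and 991 in H3 shutoff and 768 and 831 in wildtype. Of 9 cell cycle genes, 3 were higher and 1 lower. CLN3, a G1 cyclin, held 906 and 1081 in H3 shutoff and 538 and 596 in wildtype (log2 fold change 0.81, SE 0.12, adjusted p = 0.00197). CDC5, the polo kinase of mitosis, held 995 and 879 in H3 shutoff and 660 and 701 in wildtype. PDS5, a cohesin factor, was lower at 1365 and 1135 in H3 shutoff and 1677 and 1609 in wildtype. Of the 2 phosphate genes, PHO11, an acid phosphatase, was higher at 1193 and 1009 in H3 shutoff and 818 and 780 in wildtype, and PHO84 did not pass.

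**Figure D3:**
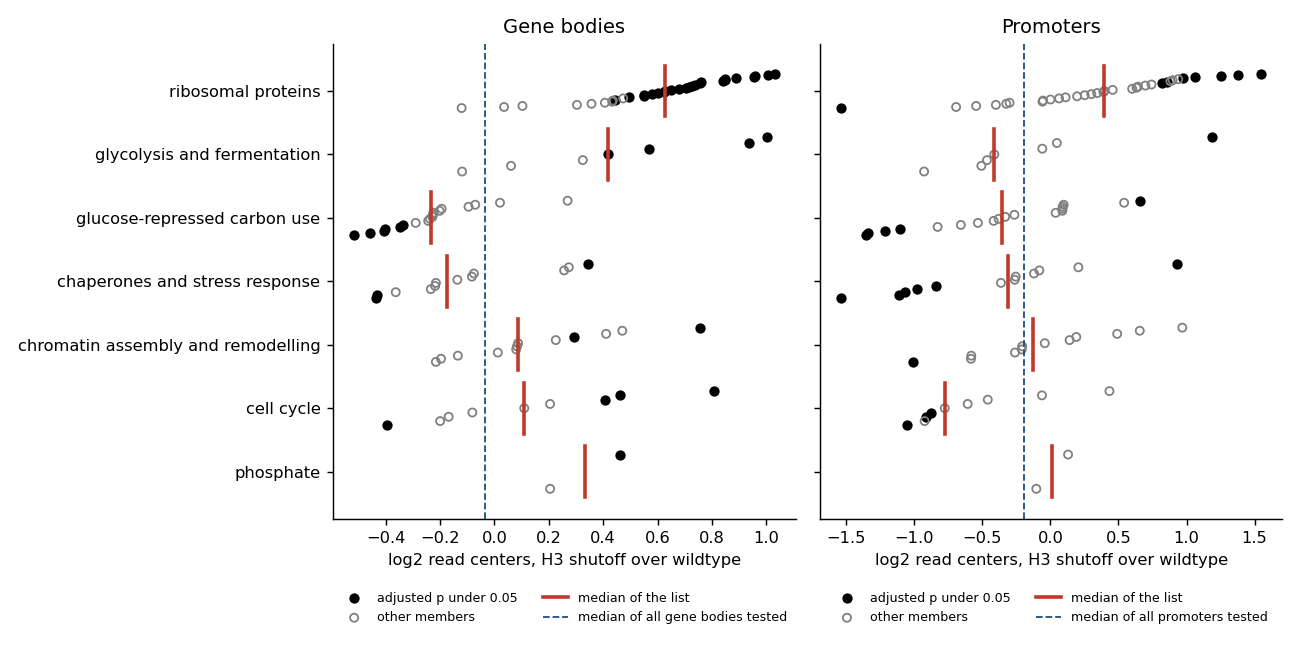
Log2 ratio of read centers, H3 shutoff over wildtype (x axis), for each gene of the 7 lists (rows), in gene bodies (left) and in the 300 bp before the start (right). Filled points passed edgeR's test at an adjusted p of 0.05, red bars are list medians and the dashed line is the median of all regions tested. The bodies of ribosomal protein genes (median 0.63) lie almost wholly above 0 and those of glucose-repressed genes (median −0.23) mostly below.

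The gene body calls keep their direction but not their number when a library is left out. The ribosomal protein list had 9 calls upward without H3 shutoff replicate 3, 8 without wildtype replicate C and 0 without H3 shutoff replicate 4 or wildtype replicate B, while 31 to 33 of its 33 genes stayed above 0. All gene bodies together had 225 calls without H3 shutoff replicate 3 and 76 without wildtype replicate C. They had 1 without wildtype replicate B and 0 without H3 shutoff replicate 4, where 476 and 430 had an unadjusted p under 0.05 (edgeR). DESeq2 and TMM gave 24 and 26 calls upward for the list and 0 downward.

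Beside list members, the gene bodies with the largest rises were mostly short reading frames that share their DNA with a neighbor. YKL156C-A, which overlaps RPS27A, held 48 and 42 read centers in H3 shutoff and 9 and 15 in wildtype. YLR062C, over RPL22A, held 168 and 205 in H3 shutoff and 64 and 93 in wildtype. YLR399W-A, over BDF1, held 40 and 31 in H3 shutoff and 9 and 12 in wildtype. TAF9, a subunit of TFIID and SAGA that overlaps no listed transcript, held 379 and 490 in H3 shutoff and 115 and 133 in wildtype (log2 fold change 1.81, SE 0.19, adjusted p = 0.00104, edgeR). YAR075W, which overlaps YAR073W, held 273 and 404 in H3 shutoff and 119 and 151 in wildtype. YLR162W held 2046 and 1708 in H3 shutoff and 1053 and 434 in wildtype, with the wildtype libraries themselves far apart.

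Among the largest falls were the overlapping pair YLL047W and RNP1, with 49 and 29 read centers in H3 shutoff and 112 and 125 in wildtype for YLL047W, and 89 and 68 in H3 shutoff and 181 and 191 in wildtype for RNP1, an RNA-binding protein gene. The largest by fold was YLR285C-A, over CTS1 and NNT1, which held 13 and 7 in H3 shutoff and 47 and 25 in wildtype. YLR311C held 33 and 16 in H3 shutoff and 82 and 40 in wildtype. YLR434C, over TSR2, held 37 and 24 in H3 shutoff and 82 and 62 in wildtype, and YLR299C-A, over ECM38, 42 and 51 in H3 shutoff and 121 and 97 in wildtype.

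Promoters, the 300 bp before a listed start, lost read centers more often than they gained. Of 1597, 68 held more in H3 shutoff (4.26%) and 175 fewer (11.0%; edgeR, adjusted p under 0.05), with a median log2 fold change of −0.20. The strains did not overlap at 888 promoters (55.6%), and 633 of all promoters were lower without overlap (39.6%). With TMM, which sets this median to 0.000702, 111 were higher and 91 lower, so the split depends on the scaling. In the 150 bp nearest the start the median was 0.09, with 57 higher and 102 lower. DESeq2 called 55 higher and 24 lower, and fragments of 140 to 160 bp gave 64 and 42. Without H3 shutoff replicate 3 or 4, edgeR called 0 promoters, with 363 and 203 at an unadjusted p under 0.05, and it called 82 without wildtype replicate B and 102 without wildtype replicate C.

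Of the promoters of 33 ribosomal protein genes, 7 passed the test upward and 1 downward, against 4.26 and 11.0% of all promoters. Their median log2 fold change was 0.40. RPL6B held 149 and 118 read centers in H3 shutoff and 62 and 29 in wildtype (log2 fold change 1.55, SE 0.32, adjusted p = 0.00144, edgeR). RPS1B held 117 and 122 in H3 shutoff and 58 and 34 in wildtype, and RPL31B held 155 and 250 in H3 shutoff and 97 and 73 in wildtype. Of the 33, 13 were higher and 4 lower without overlap between the strains. The one that passed downward was RPS22B, with 21 and 27 in H3 shutoff and 76 and 64 in wildtype, while the body of the same gene held 557 and 525 in H3 shutoff and 288 and 313 in wildtype. The wildtype libraries disagreed on this list, with more read centers in replicate B than in replicate C for most members. Its median was 0.04 without wildtype replicate C and 1.04 without wildtype replicate B, against −0.30 and −0.09 for all promoters. Without H3 shutoff replicates 3 and 4 it was 0.25 and 0.57, against −0.31 and −0.11 for all promoters. The list median thus stayed above that of all promoters, at a distance that depended most on which wildtype library was kept.

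The other promoter lists are read against all promoters, of which 4.26% were called higher, 11.0% were called lower and 35.5% lay above 0. The median of all promoters was −0.20, and it was 0.02 from fragments of 140 to 160 bp. Of 18 glucose-repressed genes, 1 was higher and 4 lower, and 38.9% lay above 0, with a median of −0.36 that was 0.11 from fragments of 140 to 160 bp. JEN1 held 51 and 50 in H3 shutoff and 118 and 141 in wildtype, FOX2 67 and 41 in H3 shutoff and 123 and 151 in wildtype, HXT2 124 and 129 in H3 shutoff and 211 and 378 in wildtype, and IDP2, cytosolic isocitrate dehydrogenase, 126 and 119 in H3 shutoff and 329 and 199 in wildtype. FBP1, fructose-1,6-bisphosphatase, was the one higher, at 184 and 213 in H3 shutoff and 118 and 134 in wildtype. Of 12 chaperone and stress genes 1 was higher and 5 lower, and 16.7% lay above 0, among them GAD1 with 75 and 64 in H3 shutoff and 245 and 160 in wildtype, HSP104 with 49 and 48 in H3 shutoff and 105 and 99 in wildtype, and SSA1 with 52 and 42 in H3 shutoff and 101 and 103 in wildtype. TPS3 of trehalose synthesis was the one higher, at 219 and 294 in H3 shutoff and 133 and 136 in wildtype. Of 9 cell cycle genes 0 were higher and 3 lower, among them SPC42 of the spindle pole body and PDS5. CAC2 had a lower promoter, 59 and 51 in H3 shutoff against 114 and 108 in wildtype, and a higher body. Of 7 glycolysis and fermentation genes, ADH3, the mitochondrial alcohol dehydrogenase, was higher at 173 and 242 in H3 shutoff and 101 and 81 in wildtype, and 0 were lower, and the list median of −0.41 was 0.26 from fragments of 140 to 160 bp. Neither phosphate promoter passed.

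The largest single rise was in the stretch before PRE5, a proteasome subunit gene that starts next to TGL3 on the other strand. It held 53 and 49 read centers in H3 shutoff and 8 and 4 in wildtype (log2 fold change 3.06, SE 0.68, adjusted p = 0.00283, edgeR). FIG4, a lipid phosphatase gene, held 99 and 113 in H3 shutoff and 29 and 25 in wildtype. The stretch before YLR339C lies on RPP0 and held 205 and 229 in H3 shutoff and 41 and 78 in wildtype, and that before YLR169W, on RPS31 and UPS2, held 130 and 164 in H3 shutoff and 48 and 40 in wildtype. The first stretch lies inside a ribosomal protein gene and the second lies partly in one, and the bodies of both genes were higher. PDR17 held 80 and 91 in H3 shutoff and 34 and 22 in wildtype, and TAD3, a subunit of the tRNA adenosine deaminase, 66 and 95 in H3 shutoff and 21 and 33 in wildtype. GOT1 with 61 and 56 in H3 shutoff and 25 and 9 in wildtype, and GYL1 with 53 and 54 in H3 shutoff and 25 and 7 in wildtype, had wildtype libraries that differed by more than 2-fold. Every stretch named in this paragraph overlaps another listed transcript, so none is free of transcribed DNA. The stretch before PRE5 overlaps TGL3, that of FIG4 YNL324W and that of PDR17 YIF1. Those of TAD3, GOT1 and GYL1 overlap EST2, TDA1 and SPG5.

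The largest falls were in YAR073W, with 10 and 9 read centers in H3 shutoff and 54 and 44 in wildtype, and NGK1, with 21 and 10 in H3 shutoff and 77 and 67 in wildtype. DRE2, an iron-sulfur cluster assembly gene, held 11 and 8 in H3 shutoff and 47 and 37 in wildtype. KTR2, a mannosyltransferase gene, held 17 in both H3 shutoff libraries and 76 and 65 in wildtype, and CTL1 held 7 and 8 in H3 shutoff and 31 and 36 in wildtype. SNZ1 of vitamin B6 synthesis held 45 and 30 in H3 shutoff and 146 and 135 in wildtype (log2 fold change −1.90, SE 0.30, adjusted p = 0.000154, edgeR). TOS4 held 32 and 15 in H3 shutoff and 75 and 91 in wildtype, and TSR2, a pre-rRNA processing gene, held 23 and 13 in H3 shutoff and 70 and 57 in wildtype. The stretch before TSR2 lies inside YLR434C, named above for its gene body, so the same DNA is counted in both. Those of CTL1, KTR2, SNZ1 and TOS4 overlap YMR181C, UTP30, SNO1 and YLR184W, while those of YAR073W, NGK1 and DRE2 overlap no listed transcript. In all 16 promoters both replicates of a strain lay on the same side, as the rule for naming them required.

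**Figure D4:**
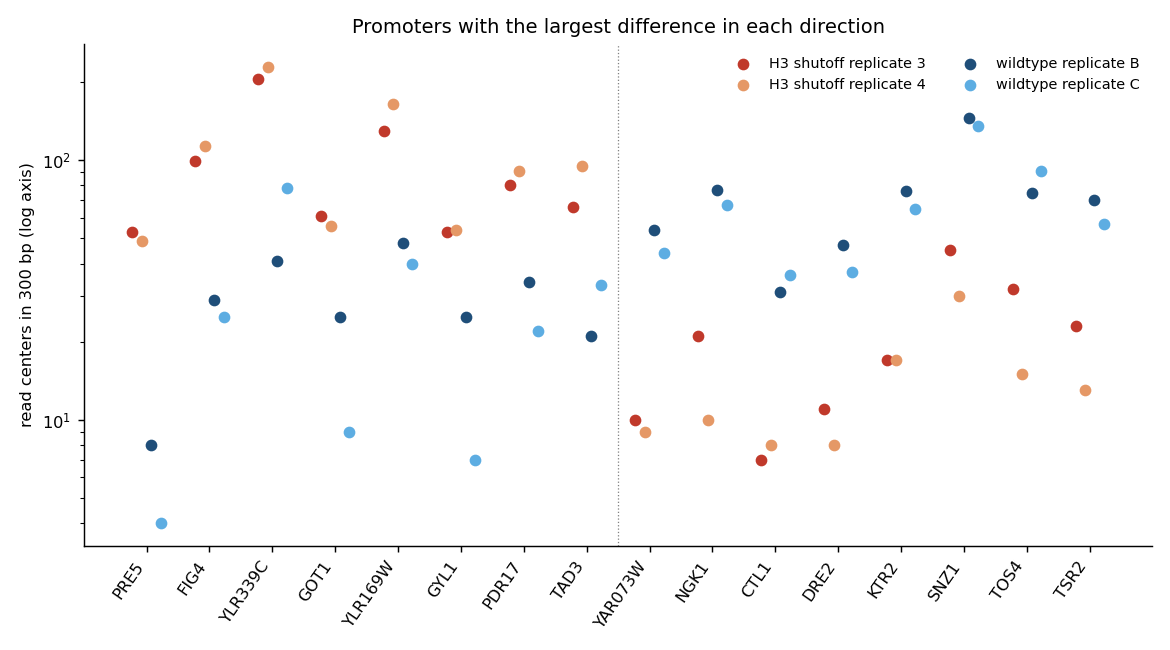
Read centers in the 300 bp before the start (y axis, log scale) in each library for the 8 promoters with the largest rise (left of the dotted line) and the 8 with the largest fall (right). Points are single libraries, H3 shutoff in red and orange and wildtype in blue. PRE5 has 53 and 49 in H3 shutoff and 8 and 4 in wildtype, and SNZ1 has 45 and 30 in H3 shutoff and 146 and 135 in wildtype.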

How the data were processed

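MNase-seq fragments and nucleosome calls of the 4 libraries taken at 3 hours were used. The authors aligned paired reads to the sacCer1 build with Bowtie 0.12.6 at default settings, which place a read that matches several copies in one of them. They kept pairs 100 to 200 bp apart, removed the rDNA on chromosome 12 (450000 to 472500) and drew an equal number of pairs from each library. The deposited tables hold fragment starts and ends, and, for nucleosomes called by the authors in each library separately, positions, lengths and standard deviations in bp, counts of read centers, and a fraction that entered no test. Neither is normalized beyond the equal depth. No genome of that build was used here, so coordinates stand as deposited.

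Each fragment was reduced to its middle base, called its read center. Density was smoothed with an SD of 10 bp. Centers for windows were called again in the 4 libraries pooled, by the authors' procedure. Transcripts came from the study's supplementary list, of which 1998 were usable, 1812 had a RefSeq name and 385, those of chromosome 10, were omitted, their listed starts being offset from the nucleosome-free regions. The copy of the list used here holds only part of its rows, on 6 chromosomes, so the gene lists are those members that lie there. Strand was read from the systematic name.

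Read centers in windows, tiles, promoters and gene bodies with at least 40 read centers over the 4 libraries were tested with edgeR 4.0.16 (quasi-likelihood test, equal library sizes). SD and mean position per window were tested with limma 3.58.1, for at least 80 read centers in all and 5 in each library. Both used Benjamini-Hochberg adjustment over all features and a threshold of 0.05. DESeq2 1.42.0, TMM, other filters, windows and fragments, and leaving out each library were alternatives. Standard errors of edgeR fold changes were taken from its F statistic. The tests were checked on simulated counts. R 4.3.3, Python 3.11.15, numpy 2.4.6, scipy 1.17.1, pandas 2.3.3 and matplotlib 3.10.9 were used. The members of the comparison, the gene lists and the tests were chosen with earlier results of these data known. Besides list members, the named promoters and gene bodies are the 8 and 6 with the largest fold change in each direction among those past the threshold whose strains did not overlap, and 4 windows in each direction were taken likewise, outside stretches without read centers in a strain. Of divergent promoters that largely overlap, only the first was taken. The values of 1 list member are not reported here.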

Additional observations from a re-analysis of the deposited data

How the results depend on the processing

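No paired analysis was possible because the H3 shutoff and wildtype libraries compared share no replicate number. Calls in total, higher and lower together, depended on the setting as follows. With the DESeq2 Wald test they numbered 7855 of 57812 windows (23404 with edgeR), 3948 tiles (12947 with edgeR) and 79 promoters (243 with edgeR), and the share lower was 23.9, 29.9 and 30.4%, against 74.3, 51.4 and 72.0% with edgeR. DESeq2 gave no adjusted p for 2242 windows and 1155 tiles. With TMM the share lower was 41.2% of window calls, 45.7% of tile calls and 43.5% of gene body calls (51.5% without scaling). From fragments of 140 to 160 bp there were 14787 windows, 6502 tiles, 106 promoters, 16012 spreads and 8907 positions, and 430 gene bodies. Windows within 73 bp gave 13779 calls, promoters of 150 bp gave 159, and spreads within 50 bp gave 15788 (30310 within 73 bp). Leaving out 1 library gave 0 windows, 0 tiles, 0 to 102 promoters, 0 to 225 gene bodies, 22840 to 26792 spreads and 9983 to 18916 positions (21288 with all 4). In these fits the lone library of a strain is assumed to vary like those of the other strain. The cause was not tested, beyond fewer fragments or libraries. The differences of values per library kept their sign under all alternatives run. Of the named or list regions past the threshold, 40 promoters and 56 gene bodies, each kept its direction, and 38 promoters and 56 gene bodies kept the call with TMM. With DESeq2 26 promoters and 51 gene bodies kept it, and from fragments of 140 to 160 bp 21 and 47. Without H3 shutoff replicate 3, 0 promoters and 26 gene bodies kept it, without H3 shutoff replicate 4 none of either, without wildtype replicate B 17 and 1, and without wildtype replicate C 8 and 15. The copy of the transcript list used here is partial, no sequence was used here, and equal depth hides any change in the total number of nucleosomes.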
